A study of Rattus norvegicus with 6 samples.

Results

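Glucocorticoid receptor target genes are represented here by 10 genes: the receptor gene Nr3c1, the cortisone and 11-dehydrocorticosterone reductase gene Hsd11b1, and 8 genes often used as readouts of the receptor, Fkbp5, Tsc22d3, Dusp1, Klf9, Zbtb16, Sgk1, Errfi1 and Glul. They were chosen by gene symbol, with their FPKM differences between banded and sham pulmonary veins already known, so their values in this contrast are given as a description, with no p-value for any of them and no weight on how many of them passed a threshold. All 10 were among the 17833 genes of the deposited table, and 10 of 10 passed the filter on low values that left 15150 genes for testing.

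The samples were pulmonary veins (PVs) of wild-type SD (Sprague-Dawley) rats, 3 rats with bilateral pulmonary vein banding (BPVB) and 3 sham rats, 1 library per rat. In BPVB the veins of both lungs were tied down against a padding needle in the newborn, which narrows them as pediatric pulmonary vein stenosis does. Sham rats had the operation but kept no band. Surgery was on postnatal day 1 and the PVs of the right upper lobe were taken on postnatal day 21 in both groups. The labels name no drug for either group. Sex, the hour of collection and any corticosterone level are not given in the sources used here. The p-values below set the difference between the groups against the spread among these 3 rats per group. In that comparison the variance of each gene was drawn toward a trend over all tested genes.

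The libraries held 23439506 to 29725808 assigned fragments, on average 1.16 times more in BPVB than in sham, and each of the 10 genes rested on 949 to 10635 fragments in every library. FPKM, fragments scaled to gene length and library size, is per length, so levels of different genes can be set side by side. The label pulmonary vein was checked on marker genes. Cardiac muscle markers, which the myocardial sleeve of the vein carries, summed to 12145 to 12519 FPKM in BPVB and 16508 to 16807 in sham, with 4 of the 6 lower and 2 higher. Smooth muscle markers summed to 4378 to 4419 and 4578 to 4646 FPKM, with 4 of the 6 lower, 1 higher and 1 neither. Endothelial markers summed to 951 to 966 and 1059 to 1064, with 4 of the 6 lower and 2 neither. Markers of other cell types differed to unequal degrees. Fibroblast markers summed to 3338 to 3370 FPKM in BPVB and 2946 to 2968 in sham, with 3 of the 5 higher and 2 lower, and lymphocyte markers overlapped at 2.50 to 3.48 and 2.35 to 4.13. Alveolar epithelium summed to 561 to 616 FPKM in BPVB against 59.4 to 62.2 in sham, macrophages to 652 to 675 against 209 to 215 (mostly Lyz2, at 592 ± 16 and 163 ± 3.8 FPKM, SD, n = 3 each, which alveolar epithelium also expresses), adipocytes to 26.6 to 28.6 against 7.16 to 10.9, and Schwann cells to 36.6 to 39.5 against 105 to 112. In bulk RNA, fewer cells of a type and less RNA per cell cannot be told apart. The paper set aside epithelial cells in its single-cell data of pulmonary veins as probably coming from lung tissue. The part of lung, fat or other cell make-up in the values of the 10 genes was not tested.

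The glucocorticoid receptor is a nuclear receptor that waits in the cytoplasm on Hsp90 and its co-chaperones until it binds cortisol or, in rats, corticosterone. It then moves to the nucleus, where it raises some genes by binding palindromic DNA elements and lowers others, many of them inflammatory, by acting on other factors. Adrenal glucocorticoid output follows the time of day and rises with stress, and in the perinatal lung the hormone is known for promoting maturation and surfactant synthesis.

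The receptor itself and the enzyme that supplies its ligand differed little between the groups. Nr3c1 (NCBI Gene 24413) stood at 26.9, 30.2 and 27.7 FPKM in BPVB and at 28.0, 28.5 and 28.1 FPKM in sham. The 3 sham values lay inside the BPVB range. The means were 28.3 ± 1.7 and 28.2 ± 0.25 FPKM (SD, n = 3 each), a log2 difference of 0.00 (SE 0.051). Hsd11b1 (NCBI Gene 25116), which regenerates active glucocorticoid inside cells, stood at 9.70, 9.67 and 9.41 FPKM in BPVB and at 9.79, 9.41 and 8.37 FPKM in sham. These groups overlapped too, with means of 9.59 ± 0.16 and 9.19 ± 0.73 FPKM (SD, n = 3 each) and a log2 difference of 0.06 (SE 0.073). Hsd11b1 was the lowest of the 10 genes in both groups.

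Fkbp5 (NCBI Gene 361810) encodes a co-chaperone that lowers the affinity of the receptor for hormone, and it is among the most used readouts of receptor activity. It was at 12.1, 13.2 and 14.3 FPKM in BPVB and 11.4, 12.4 and 12.6 FPKM in sham. The BPVB values reached higher, but the lowest of them lay below 2 of the 3 sham values. The means were 13.2 ± 1.1 and 12.1 ± 0.67 FPKM (SD, n = 3 each), and the log2 difference was 0.11 (SE 0.076).

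Tsc22d3 (NCBI Gene 83514) encodes GILZ, the glucocorticoid-induced leucine zipper, which restrains NF-κB and AP-1. It was at 73.3, 64.1 and 68.1 FPKM in BPVB and 78.8, 82.8 and 81.8 FPKM in sham. Every BPVB value lay below every sham value, with means of 68.5 ± 4.6 and 81.2 ± 2.1 FPKM (SD, n = 3 each) and a log2 difference of -0.24 (SE 0.049). Dusp1 (NCBI Gene 114856), a phosphatase that switches off p38 and JNK, was the highest of the 10 genes. It was at 108, 111 and 111 FPKM in BPVB and 144, 136 and 136 FPKM in sham, again without overlap. The means were 110 ± 1.9 and 139 ± 4.7 FPKM (SD, n = 3 each) and the log2 difference was -0.34 (SE 0.033).

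The transcription factor genes Klf9 and Zbtb16 were the lowest in BPVB relative to sham. Klf9 (NCBI Gene 117560), a Krüppel-like factor, was at 47.0, 42.6 and 45.9 FPKM in BPVB and 71.9, 70.1 and 67.8 FPKM in sham. The groups were far apart, with means of 45.1 ± 2.3 and 69.9 ± 2.0 FPKM (SD, n = 3 each) and a log2 difference of -0.63 (SE 0.045). Zbtb16 (NCBI Gene 353227), which encodes the zinc finger repressor PLZF, was at 15.1, 16.7 and 15.4 FPKM in BPVB and 29.0, 29.9 and 29.0 FPKM in sham. Its BPVB mean of 15.7 ± 0.84 FPKM lay below the sham mean of 29.3 ± 0.51 FPKM (SD, n = 3 each), a difference of -46.3%. The log2 difference of -0.88 (SE 0.052) had rank 229 from the lowest of the 15150 genes.

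The other 3 genes lay on the opposite side. Sgk1 (NCBI Gene 29517), the serum and glucocorticoid regulated kinase, which raises the activity of epithelial sodium channels, was at 24.3, 26.1 and 25.7 FPKM in BPVB and 16.3, 17.3 and 14.9 FPKM in sham. The groups did not overlap, and the means of 25.4 ± 0.94 and 16.2 ± 1.2 FPKM (SD, n = 3 each) gave a log2 difference of 0.64 (SE 0.064). Errfi1 (NCBI Gene 313729), a feedback inhibitor of the EGF receptor, was at 72.2, 74.5 and 73.4 FPKM in BPVB and 46.1, 46.9 and 44.8 FPKM in sham. Its 6 values formed a pair of tight, separate groups, with means of 73.4 ± 1.1 and 45.9 ± 1.1 FPKM (SD, n = 3 each) and a log2 difference of 0.67 (SE 0.035). Glul (NCBI Gene 24957), the glutamine synthetase gene, was at 98.3, 94.4 and 98.0 FPKM in BPVB and 78.9, 84.4 and 83.8 FPKM in sham. Glul did not overlap either, with means of 96.9 ± 2.2 and 82.4 ± 3.0 FPKM (SD, n = 3 each) and a smaller log2 difference of 0.23 (SE 0.037).

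**Figure D1:**
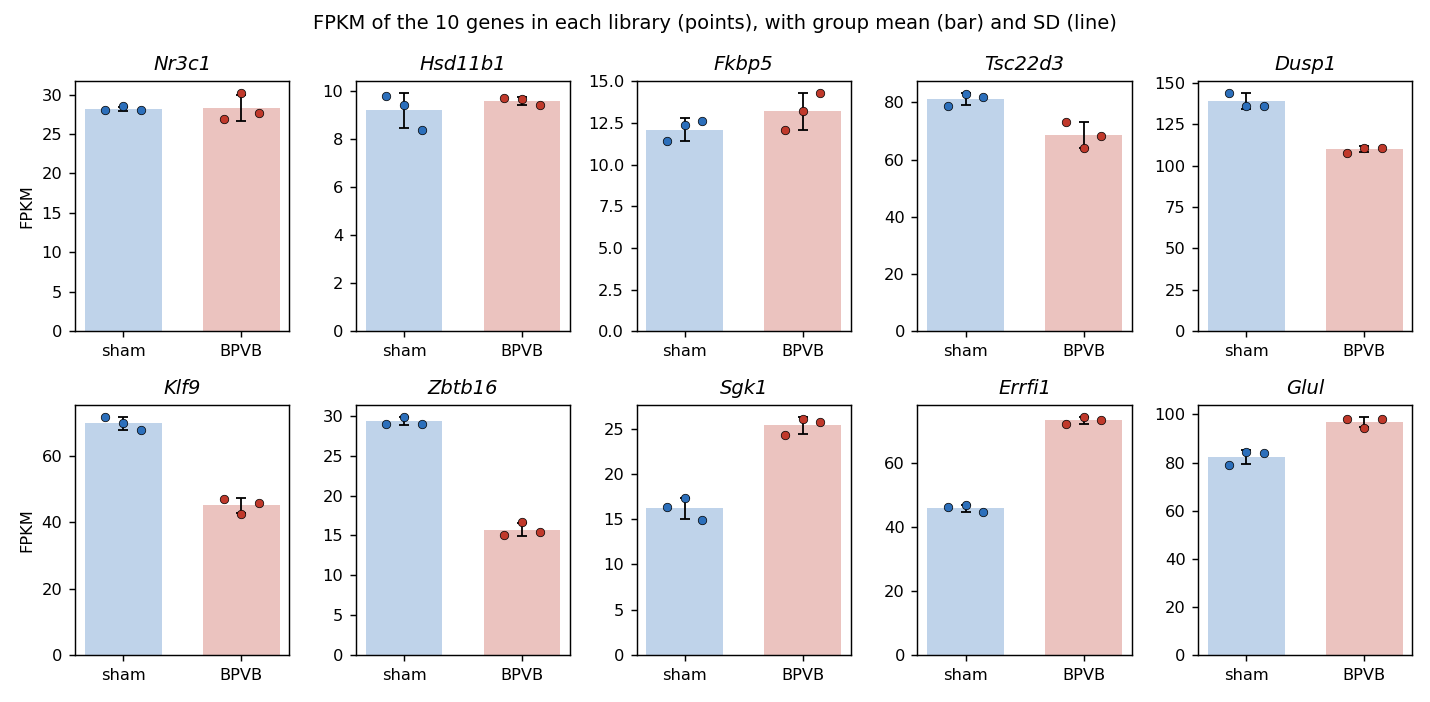
FPKM of the 10 glucocorticoid receptor genes in each library, one panel per gene with its own axis from 0. Points are the 3 BPVB and 3 sham rats, bars the group means and lines the SD. Klf9 and Zbtb16 sat lower and Sgk1 and Errfi1 sat higher in every BPVB library than in any sham library, while Nr3c1, Hsd11b1 and Fkbp5 overlapped.

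At an adjusted p under 0.05 (limma over all 15150 genes), 3 of the 10 genes were higher in BPVB, where 17.2% of all tested genes were, and 4 of 10 were lower, where 14.3% of all tested genes were. For 7 of 10 the groups did not overlap, as they did not for 45.6% of all tested genes. None of the 10 also passed an absolute log2 difference of 1, which 3.27% of all tested genes did with adjusted p under 0.05: this count was 0 by limma and 0 by voom on recovered fragments, while 7 of the 10 had an unadjusted p under 0.05 by each tool. Since the genes were selected on this contrast, nothing is read from these counts. The median log2 difference of the 10 was 0.03 beside 0.02 over all tested genes, and the median absolute difference was 0.29 beside 0.18.

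The opposite shifts changed the order of the 10 genes by level. In sham the order of mean FPKM was Dusp1, Glul, Tsc22d3, Klf9, Errfi1, Zbtb16, Nr3c1, Sgk1, Fkbp5 and Hsd11b1, and Glul and Tsc22d3 were the only neighbours whose 3 values overlapped. In BPVB it was Dusp1, Glul, Errfi1, Tsc22d3, Klf9, Nr3c1, Sgk1, Zbtb16, Fkbp5 and Hsd11b1, with overlap between Errfi1 and Tsc22d3 alone. Sgk1 ran at 0.551 ± 0.035 of the Zbtb16 level in sham and at 1.62 ± 0.054 times it in BPVB (SD, n = 3 each). Errfi1 likewise ran at 0.657 ± 0.015 of the Klf9 level in sham and at 1.63 ± 0.11 times it in BPVB (SD, n = 3 each). These pairs were chosen after their values were seen.

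Differences among the rats of a group were not used to choose the genes. The coefficient of variation of the 10 genes ran from 0.904% for Nr3c1 in sham to 8.43% for Fkbp5 in BPVB, beside a median of 4.86% in BPVB and 4.79% in sham over 8401 genes at 5 FPKM or more on average. Fkbp5 was 18.4% higher in BPVB replicate 3 than in BPVB replicate 1. Tsc22d3 and Klf9, a pair chosen after their values were seen, had another order among the BPVB rats. In BPVB replicate 1 they lay 6.95% and 4.11% above their group means, in replicate 2 they lay at -6.39% and -5.67%, and in replicate 3 at -0.56% and 1.56%. In sham they did not move together, at -2.87% and 2.83% in replicate 1 and 0.80% and -3.01% in replicate 3. No library was the highest or lowest throughout: BPVB replicates 1, 2 and 3 were highest for 4, 4 and 2 of the 10 genes, and sham replicates 1, 2 and 3 for 3, 6 and 1.

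**Figure D2:**
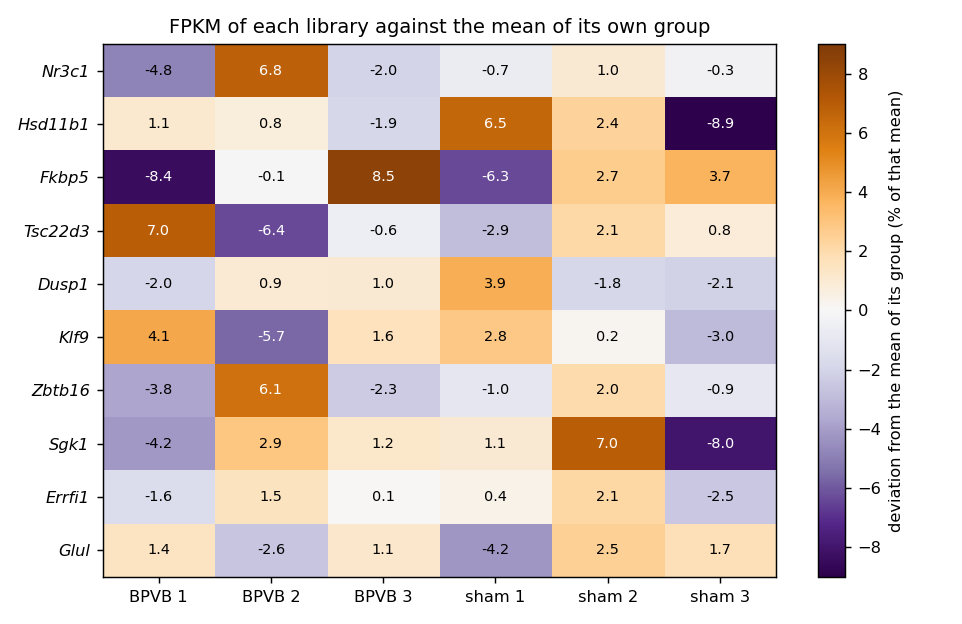
Deviation of each library from its own group mean, in percent of that mean, for the 10 genes (rows) in the 3 BPVB and 3 sham libraries (columns). The range was -8.87% (Hsd11b1 in sham replicate 3) to 8.48% (Fkbp5 in BPVB replicate 3), and no column had 1 sign throughout.

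Over the 6 libraries, the genes whose level was most like that of Fkbp5, out of 12157 genes averaging 1 FPKM or more, were Fxyd6 (Pearson r = 0.994), Etv6 (0.981), RGD1308117 (0.979), Stx2 (0.979) and Taf1d (0.977). None of the other 9 glucocorticoid receptor genes was among them. These are correlations of log2 values over the same 6 libraries, of which BPVB replicate 3 was the deepest, and are given as a description.

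RefSeq promoter windows, the 250 bases before each annotated start in the rat assembly GRCr8, were at hand for 8 of the 10 genes in 14 windows. Zbtb16 and Hsd11b1 had none. The core of the palindromic glucocorticoid response element (GNACA, any 3 bases, TGTNC, both strands) was in 0 of the 8, and in 0.397% of the 27457 genes with a window. Its single arm TGTTCT was also in 0 of 8 and in 18.5% of genes. The letters TGACG, which form the core of the element bound by CREB, were in 4 of 8 (Tsc22d3, Klf9, Errfi1 and Dusp1) and in 20% of genes on either strand, or, counted by window, in 4 of the 14 and in 18.2% of the 33469. The full palindrome TGACGTCA, which contains TGACG, was in Dusp1 alone of the 8 and in 1.78% of genes, and so was the E-box CACGTG, read by clock and bHLH factors, which 6.18% of genes held. A match is a run of letters and no more, and elements further from the start lie outside these windows.

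Printed for these 4 genes are the stretches of the windows that hold TGACG, with 20 bases on either side, because it was the one motif of those searched that several of the genes had in common. Each is written 5′ to 3′ on the strand of the gene, and capitals mark TGACG or its complement CGTCA. They are Klf9 at chr1:230126547-230126591 on the plus strand, Errfi1 at chr5:166606765-166606809 on the plus strand, Dusp1 at chr10:17184661-17184756 on the plus strand and Tsc22d3 at chrX:109010075-109010129 on the minus strand.
Klf9: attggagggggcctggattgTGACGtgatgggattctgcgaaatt
Errfi1: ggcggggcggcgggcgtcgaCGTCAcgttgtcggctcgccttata
Dusp1: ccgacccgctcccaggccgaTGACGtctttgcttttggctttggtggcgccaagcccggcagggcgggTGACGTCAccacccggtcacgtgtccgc
Tsc22d3: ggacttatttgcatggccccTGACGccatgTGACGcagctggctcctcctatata
Among these 4 genes, 3 were lower in BPVB and Errfi1 was higher, as the FPKM values above show.

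Of 32 other genes that supply ligand to the receptor, fold it or act with it, 6 were higher and 6 lower in BPVB (18.8% each way, beside 17.2% and 14.3% of all tested genes) and 20 passed neither way, with a median log2 difference of -0.01 beside 0.02. Fkbp4, which encodes the co-chaperone that takes the place of the Fkbp5 protein on the receptor once hormone binds, fell from 94.8, 94.8 and 94.2 FPKM in sham to 65.6, 64.8 and 63.5 FPKM in BPVB. The groups were well apart (log2 difference -0.55, SE 0.030, limma adjusted p = 2.5e-06). Fkbp4 was named after its values were seen. The ratio of Fkbp5 to Fkbp4 was 0.128 ± 0.0073 in sham and 0.204 ± 0.021 in BPVB (SD, n = 3 each).

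Of the 12 genes in the list of chaperones and the related receptor gene Nr3c2, 2 were higher (16.7%, beside 17.2% of all tested genes), 3 lower (25.0%, beside 14.3%) and 7 neither. The Hsp90 genes Hsp90ab1 and Hsp90aa1, which hold the receptor ready for hormone, rose, from 611 ± 6.4 to 726 ± 10 FPKM (SD, n = 3 each, limma adjusted p = 4.2e-05) and from 121 ± 5.5 to 149 ± 3.3 FPKM (adjusted p = 3.9e-04). The 3 lower genes were Fkbp4, given above, Hspa8 and Stip1. Hspa8, a constitutive Hsp70, was at 734 ± 18 FPKM in sham and 673 ± 25 FPKM in BPVB (SD, n = 3 each, limma adjusted p = 0.016, and 0.061 without sham replicate 1). Stip1 had a log2 difference of -0.16 (limma adjusted p = 0.026). Its adjusted p was 0.053, 0.060, 0.070 and 0.069 without BPVB replicates 1, 2 and 3 and sham replicate 3. Ptges3, the p23 co-chaperone, did not pass (log2 difference 0.06, limma adjusted p = 0.20). Nr3c2, which encodes the mineralocorticoid receptor, a receptor for the same hormone, did not pass either (5.16 ± 0.16 FPKM in BPVB and 5.46 ± 0.30 in sham, SD, n = 3 each, limma adjusted p = 0.53).

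Among the 8 ligand supply genes, 2 were higher and 2 lower (25.0% each way, beside 17.2% and 14.3% of all tested genes) and 4 neither. Abcb1b, a drug efflux pump that exports glucocorticoids, rose from 0.255 ± 0.17 to 1.41 ± 0.26 FPKM (SD, n = 3 each, log2 difference 1.36, limma adjusted p = 5.9e-04). Akr1c14, a hydroxysteroid dehydrogenase, fell from 75.2 ± 1.2 to 54.1 ± 3.4 FPKM (SD, n = 3 each, limma adjusted p = 9.4e-05). The other gene called lower was Serpina6, corticosteroid-binding globulin, on 1 to 15 fragments per library (log2 difference -0.59, limma adjusted p = 0.017, but 0.054 without BPVB replicate 1 and 0.063 without sham replicate 2, each of which leaves 1 lower gene). H6pd, which supplies NADPH to the Hsd11b1 enzyme, was at 6.18 ± 0.21 FPKM in BPVB and 5.0 ± 0.51 in sham, with a limma adjusted p of 0.043 that stayed under 0.05 on leaving out sham replicate 2 (0.027) but lay between 0.070 and 0.13 on leaving out any of the other 5 libraries. Hsd3b7 (adjusted p = 0.70) and the steroid reductase gene Srd5a1 (adjusted p = 0.97) did not pass. Hsd11b2, which inactivates corticosterone, was low in both groups, at 0.852 ± 0.24 FPKM in BPVB and 1.02 ± 0.18 in sham (SD, n = 3 each, limma adjusted p = 0.46).

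Of the 12 coregulator genes, 2 were higher (16.7%, beside 17.2% of all tested genes), 1 lower (8.33%, beside 14.3%) and 9 neither. The highest were Crtc2, Smarca4, Ncor1 and Ep300, with mean levels of 10.3 to 14.5 FPKM in BPVB. Of these only the corepressor Ncor1 passed (log2 difference 0.18, limma adjusted p = 0.042), and its adjusted p was 0.056 to 0.12 on leaving out any 1 library. The other 2 that passed were Ncoa2, a coactivator, at a log2 difference of 0.54 (limma adjusted p = 0.0020), and Ppargc1a, a coactivator of mitochondrial genes, at -0.38 (adjusted p = 0.0049).

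A list of 37 other genes known to rise with glucocorticoid in some tissue held genes on both sides. In BPVB 17 of 37 were higher (45.9%, beside 17.2% of all tested genes), 6 were lower (16.2%, beside 14.3%) and 14 passed neither way, and the median log2 difference was 0.20 beside 0.02 over all tested genes. Of the 17, Cdkn1c (limma adjusted p = 0.049) stayed under 0.05 in 1 of the 6 fits that left out a library. Il1r2 (limma adjusted p = 0.018) did so in 4 of the 6 fits. The 6 genes of the list that also passed an absolute log2 difference of 1 were all higher. Angptl4, an inhibitor of lipoprotein lipase, was at 36.1, 36.0 and 32.2 FPKM in BPVB and 2.69, 1.77 and 2.24 FPKM in sham, rank 4 from the highest log2 difference of all tested genes, at 3.70 (SE 0.12, limma adjusted p = 1.1e-07). Pdk4, the kinase that restrains pyruvate oxidation, was at 141, 137 and 131 FPKM against 35.2, 38.2 and 33.9 FPKM (log2 difference 1.92, SE 0.049, limma adjusted p = 2.9e-08). Neither gene came near overlap, and both are also targets of the PPAR receptors.

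The other 4 were Cdkn1a, the p21 cell cycle inhibitor (log2 difference 2.51, SE 0.061, limma adjusted p = 2.1e-08), Pck1, the gatekeeping enzyme of gluconeogenesis (1.86, SE 0.11, adjusted p = 4.2e-06), Scnn1a, an epithelial sodium channel subunit (1.81, SE 0.11, adjusted p = 5.3e-06), and Mt2A, a metallothionein (1.18, SE 0.064, adjusted p = 2.2e-06). Scnn1a is a gene of lung epithelium, and Pck1 and Angptl4 are genes of fat, whose markers also summed higher in BPVB, as given above. What those cells contributed to these values was not tested. Of the 4 highest genes of the list, Txnip, a thioredoxin inhibitor, rose from 434 ± 5.3 to 710 ± 11 FPKM (SD, n = 3 each, limma adjusted p = 1.1e-07) and Anxa1, the annexin that carries part of the anti-inflammatory action of glucocorticoids, from 159 ± 1.5 to 188 ± 15 FPKM (adjusted p = 0.0075). Rhob, a small GTPase, fell from 248 ± 3.2 to 219 ± 1.4 FPKM (SD, n = 3 each, limma adjusted p = 5.2e-04). Gpx3, secreted glutathione peroxidase, was the most abundant at 949 ± 17 and 908 ± 3.5 FPKM and did not pass (SD, n = 3 each, limma adjusted p = 0.054, and 0.022 without BPVB replicate 1).

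The genes of the list that were lower, named after their values were seen, included some that like Klf9 and Zbtb16 are standard receptor readouts. Per1, a clock gene with a glucocorticoid element, was at 8.16, 8.57 and 8.33 FPKM in BPVB and 13.2, 13.7 and 12.6 FPKM in sham (log2 difference -0.62, SE 0.061, limma adjusted p = 8.8e-05). Klf15, a metabolic Krüppel-like factor, was at 11.6, 9.74 and 10.1 FPKM against 16.9, 16.6 and 17.0 FPKM (-0.66, SE 0.071, limma adjusted p = 1.5e-04). Fam107a was at 16.6, 16.4 and 15 FPKM against 26.8, 28.2 and 24.6 FPKM (-0.71, SE 0.065, limma adjusted p = 5.7e-05). All 3 were without overlap. Map3k6 (-0.61), Foxo3 (-0.28) and Rhob (-0.18) made up the 6.

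**Figure D3:**
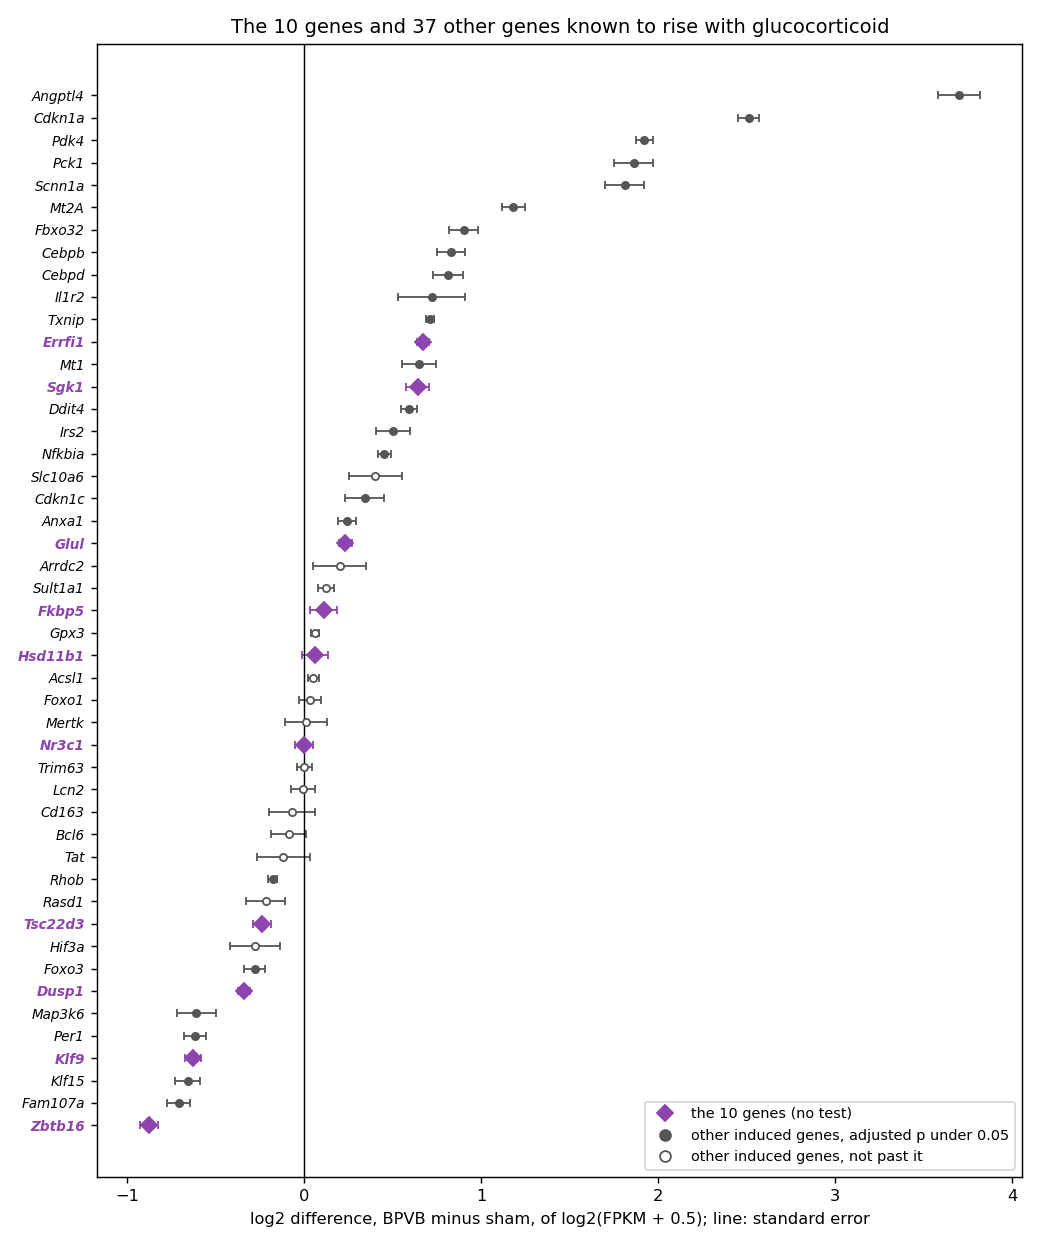
Log2 difference in FPKM, BPVB minus sham, with bars of 1 standard error, for the 10 genes and the 37 other genes known to rise with glucocorticoid, in order of size. Zbtb16 at -0.88 was the lowest plotted and Angptl4 at 3.70 the highest, and genes of both sets stood on either side of 0.

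Many genes that answer to time of day and to acute stimulation also differed between the groups. Of 15 clock genes, 10 fell (66.7%, beside 14.3% of all tested genes), 4 rose (26.7%, beside 17.2%) and 1 passed neither way (median log2 difference -1.49). Dbp, the clock output factor, fell from 140 ± 1.8 to 12.0 ± 0.33 FPKM (SD, n = 3 each, limma adjusted p = 3.7e-10). Nr1d1, Ciart, Per3, Nr1d2, Tef, Per2, Hlf, Bhlhe41 and Bhlhe40 fell by 2.46 to 1.19 on the log2 scale, and Arntl, the positive arm of the clock, rose by 2.91 and Npas2 by 1.3. Of 11 immediate early genes, 9 fell (81.8%, beside 14.3% of all tested genes) and 1 rose (9.09%, beside 17.2%). Those that fell included Fos from 196 ± 2.6 to 59.2 ± 0.59 FPKM (SD, n = 3 each, limma adjusted p = 1.7e-09), Fosb (-1.85), Junb (-1.52), Ier2 (-1.32), Egr1 (-1.13), Jun (-0.97) and Zfp36 (-0.91), and the gene that rose was Atf3 (0.74). The summed clock list stood at 129 to 134 FPKM in BPVB and 422 to 425 in sham, and the immediate early list at 489 to 497 and 1114 to 1132. Dusp1 and Klf9 also respond to acute stimulation and to the clock. The part of either in the values of the 10 genes was not tested, and whether the hour of collection differed between the groups is not given.

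Of 16 genes that glucocorticoids are known to repress, mostly inflammatory, 6 were higher (37.5%, beside 17.2% of all tested genes), 2 lower (12.5%, beside 14.3%) and 8 neither, with a median log2 difference of 0.24 beside 0.02. The chemokine genes Ccl11, Ccl7 and Ccl2, which recruit eosinophils and monocytes, were the 3 of the list that also passed an absolute log2 difference of 1. Ccl11 was at 28.3, 29.7 and 26.8 FPKM in BPVB and 5.89, 4.84 and 3.99 FPKM in sham (log2 difference 2.42, SE 0.12, limma adjusted p = 1.2e-06). Ccl7 rose from 3.36 ± 1.2 to 9.77 ± 0.88 FPKM (SD, n = 3 each, limma adjusted p = 4.7e-04) and Ccl2 from 9.48 ± 2.0 to 19.5 ± 0.96 FPKM (adjusted p = 4.5e-04). Ccl2 passed the log2 threshold narrowly, at 1.02, and ran from 0.86 to 1.16 over the alternatives. Of the adhesion molecules of leukocyte entry, Vcam1 and Icam1 rose less, by 0.61 and 0.17 on the log2 scale (limma adjusted p = 4.7e-05 and 0.014). Sele overlapped and did not pass (1.41 ± 0.20 FPKM in BPVB and 1.25 ± 0.20 in sham, SD, n = 3 each, limma adjusted p = 0.54). Il6 also passed (0.61 with the pseudocount of 0.5, and 0.36 to 2.29 over the alternatives, limma adjusted p = 0.035), on 1 to 18 fragments per library, and on leaving out single libraries kept an adjusted p under 0.05 only without BPVB replicate 2 (0.018, otherwise 0.069 to 0.099). The 2 lower genes were not stable: Ptgs2, the inducible cyclooxygenase, had a limma adjusted p of 0.019, which was 0.062, 0.062, 0.067 and 0.070 without BPVB replicates 1 and 3 and sham replicates 2 and 3, and Nos2, the inducible nitric oxide synthase, had 0.032, which was 0.057 to 0.094 on leaving out any 1 library. The other chemokine genes of the list, Cxcl1 and Cxcl2, overlapped and did not pass (log2 difference -0.30 and 0.30, limma adjusted p = 0.54 and 0.43). Macrophage markers, all 6 of 6 higher in BPVB, moved with Ccl11, Ccl7 and Ccl2, and their part was not tested.

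Close relatives of the 10 genes did not all move as they did. Of 10 tested paralogues, 6 were higher (60.0%, beside 17.2% of all tested genes), 2 lower (20%, beside 14.3%) and 2 neither. The 6 include Sgk3 (log2 difference 0.31, limma adjusted p = 0.043), whose adjusted p was 0.056 to 0.14 on leaving out any 1 library. Tsc22d4, a leucine zipper relative of Tsc22d3, rose from 83.9 ± 1.5 to 97.6 ± 0.95 FPKM (SD, n = 3 each, limma adjusted p = 6.2e-04), while Tsc22d1 was lower, as Tsc22d3 was (log2 difference -0.18, limma adjusted p = 0.0021). The phosphatase genes Dusp2 (1.16, limma adjusted p = 5.1e-04) and Dusp6 (0.45, adjusted p = 2.1e-04) were higher in BPVB, where Dusp1 was lower. Klf13, the nearest relative of Klf9, did not pass (0.09, limma adjusted p = 0.53), and the ratio of Klf9 to Klf13 was 3.95 ± 0.30 in BPVB and 6.53 ± 0.62 in sham (SD, n = 3 each). Fkbp8 was at a log2 difference of -0.16 (limma adjusted p = 0.030), and its adjusted p was 0.079, 0.092, 0.10 and 0.083 without BPVB replicates 1 and 2 and sham replicates 2 and 3.

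The annotation in the deposited table gave a wider view. Apart from the 10 genes, 179 tested genes carried 1 or more of 3 Gene Ontology terms for the response to glucocorticoid or dexamethasone, a choice of terms made after the files were read. Of these, 69 were higher (38.5%, beside 17.2% of all tested genes), 27 lower (15.1%, beside 14.3%) and 83 neither, and the median log2 difference was 0.14 beside 0.02. Among the 21 that also passed an absolute log2 difference of 1, 20 were higher and Socs3, a feedback inhibitor of cytokine receptors, was lower, at 5.53, 5.55 and 6.13 FPKM in BPVB and 13.6, 13.8 and 13.4 FPKM in sham (limma adjusted p = 3.2e-06). The 20 included the surfactant genes Sftpa1, Sftpb, Sftpc and Sftpd and the club cell gene Scgb1a1, and the MHC class II genes RT1-Ba and RT1-Bb. Sftpc was at 390 ± 22 FPKM in BPVB and 36.6 ± 1.4 in sham (SD, n = 3 each, limma adjusted p = 8.6e-10). Surfactant genes mark alveolar epithelium, whose 6 of 6 markers were higher in BPVB, and the share of these terms that such cells account for was not tested. Of the 10 genes themselves, the terms name Nr3c1, Errfi1 and Dusp1.

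**Figure D4:**
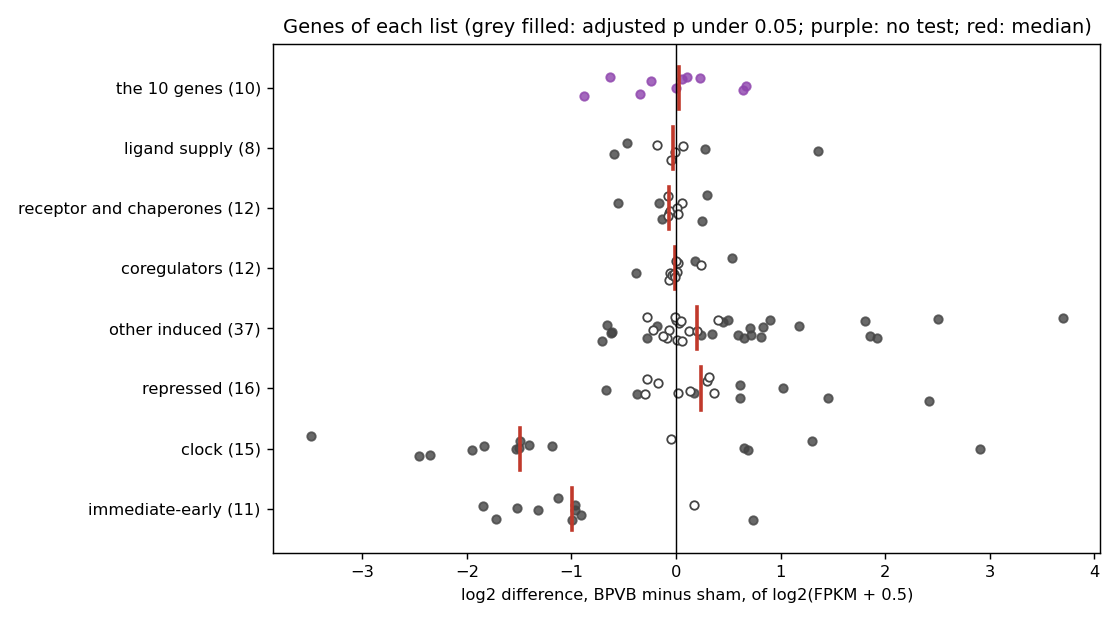
Log2 difference in FPKM, BPVB minus sham, of each gene in the lists described, with a red line at the list median. The 10 genes spread from -0.88 to 0.67 around a median of 0.03, the genes known to rise with glucocorticoid reached 3.70, and the clock and immediate early lists had medians of -1.49 and -0.99.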

How the data were processed

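Bulk RNA-seq of PVs was analysed from 3 BPVB and 3 sham rats. The authors deposited 1 table of FPKM per gene and library. Their methods name fastp, HISAT and HTSeq-count, whereas the submitters' processing notes list HISAT2 2.0.5, StringTie 1.3.3b, featureCounts 1.5.0-p3 and DESeq2 1.20.0. Which counter made the values, the genome build, the annotation and the strand setting are not given in the sources used here. Without strand, antisense overlap cannot be told apart. Columns were matched to samples by the letter and number of their names.

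Whole fragments were recovered from the FPKM steps for all 17833 genes (100.00% of values within 0.001), which gave the depth of each library. Genes averaging 0.1 FPKM or more were tested on log2(FPKM + 0.5) with limma 3.58.1 (R 4.3.3, eBayes with trend, two-sided, Benjamini-Hochberg over all 15150 genes). Log2 differences are on that scale, which understates changes of low genes. The deposited scaling was kept, and the median log2 difference of all tested genes was 0.025 (0.002 after median-of-ratios scaling). The procedure was tested on simulated data. Replicates were separate rats. Their pairwise spread was 4.55 to 6.41 times the counting variance as a mean over genes, and 1.97 to 2.59 times as a median.

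The 10 genes and the gene lists were chosen with earlier results of these data known. Named were the 10 genes, the genes of each list past an adjusted p of 0.05 and an absolute log2 difference of 1, its 4 highest genes by mean FPKM, and the 5 genes most correlated with Fkbp5. Exceptions are the Gene Ontology terms, whose genes past both thresholds are given as a count with examples, the cell type markers, given as sums, and Hsd11b2, Serpina6, Nr3c2, Fkbp4, Ncoa2, Ppargc1a, Il6, Ptgs2, Nos2, Klf13, Sgk3, Atf3, Per1, Klf15, Fam107a, Map3k6 and Foxo3, which were named after their values were seen. Cdkn1c, Il1r2, Stip1, Sele, Cxcl1 and Cxcl2 were also named after their values were seen. Alternatives were other pseudocounts, filters and scalings, a replicate block, robust eBayes, voom on recovered fragments and leaving out each library. Motifs were searched in the RefSeq promoter table of GRCr8.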

Additional observations from a re-analysis of the deposited data

How the results depend on the processing

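Over 15 alternatives, each of the 7 genes of the 10 that passed an adjusted p of 0.05 kept its sign and passed in all 15, which is no independent support, since the genes were selected on this contrast. Nr3c1 changed sign in 4 alternatives and Hsd11b1 in 1, with ranges of -0.04 to 0.04 and -0.00 to 0.11 on the log2 scale, and Fkbp5 ranged from 0.06 to 0.17. The number of genes past an adjusted p of 0.05 and an absolute log2 difference of 1 was 496, but 325 with a pseudocount of 1, 901 with 0.1 and 1122 by voom on recovered fragments. The 2 repressed targets called lower became 1 with the replicate block and 0 to 1 on leaving out 1 library. The other counts (all tested genes, the 10 genes, induced targets, repressed targets called higher, receptor machinery) stayed within 1.5 times in every alternative, the replicate block included. The cause was not tested.

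The replicate numbers did not pair the samples: the correlations between same-numbered BPVB and sham deviations were 0.031, 0.025 and 0.019, although each library correlated best with its own number, a hint from the data and not from the design. With the replicate block, 2466 genes were higher and 2073 lower, against 2605 and 2170 without it.

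With 3 rats per group, the difference of Fkbp5 lay within its own spread between rats, and genes under about 1 FPKM rested on few fragments. Over the alternatives the log2 difference of Abcb1b ran from 0.95 to 2.61, that of Dusp2 from 0.78 to 2.37, that of Il6 from 0.36 to 2.29, that of Serpina6 from -2.36 to -0.34, that of Ciart from -3.63 to -1.83 and that of Rhob from -0.21 to -0.10.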
